A study of Mus musculus with 12 samples.

Results

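The 8 Kruppel-like factor genes Klf2, Klf3, Klf4, Klf5, Klf6, Klf9, Klf10 and Klf13 were followed across liver cells sorted by EGFP. They were taken by symbol from the deposited table, where each had 1 row, and are 8 of its 54227 gene symbols. The cells came from livers of C57Bl/6 mice with the transgene Sox9EGFP, whose EGFP follows the activity of Sox9, a transcription factor of bile duct cells. All mice were fasted for 16 h, and their dissociated liver cells were sorted by fluorescence into GFPneg, GFPsublow, GFPlow and GFPhigh, called neg, sub, low and high here. Neg is the gate without EGFP and carries markers of more than 1 cell type, endothelial and stellate cells among them. Hnf4a and Fgb of hepatocytes, Ptprc of leukocytes and Clec4f and Lyz2 of macrophages were at 0 in its 3 libraries. Cd3e of leukocytes and C1qa of macrophages were at 0 in every library of every gate. Other such markers were present: Ms4a1 and Cd79a stood at 743.6 and 364.4 in neg 2, and Cd68 and C1qb at 532.7 and 431.1 in neg 1. Neg is thus not taken as a sample of all EGFP-negative liver cells. Sorting steps other than the EGFP gates are not given in the sources used here. Every population carried the transgene and the fast. Each population had 3 libraries of total RNA, 12 in all, each made from 12000 cells; the ages and the number of mice behind them are not given in the sources used here.

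Kruppel-like factors are zinc finger transcription factors that bind GC-rich boxes and CACCC elements in promoters and enhancers, and many of them compete with the related Sp proteins for the same sites. Members differ mainly outside the zinc fingers, in the parts that recruit coactivators such as p300 or corepressors such as CtBP and Sin3. In the liver vasculature Klf2 and Klf4 are known as factors induced by blood flow in endothelial cells, whereas Klf5 is known from epithelia and Klf6 from the early response to injury and growth signals.

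Depth ranged from 8775387 to 15535588 recovered reads and from 9039 to 12687 genes above 0 per library. Values below are the authors' normalised counts, in which 1 read is worth between 0.691 and 1.22. Many genes were at 0 in some but not all libraries of a population: of 9614 genes with a mean of at least 100, 6412 (66.7%) were at 0 in 1 or 2 of the 3 libraries of at least 1 population, and of the 8 Kruppel-like factors only Klf13 was. Sox9 was at 0.691, 0 and 0 in the neg libraries, and its lowest and highest values were 3707 and 6653 for sub, 8838 and 17140.4 for low, and 11793 and 13969 for high. Summed biliary markers (12 genes) lay between 303.3 and 709.9 in neg, with Epcam, Spp1, Cftr, Pkhd1 and Tspan8 at 0 in its 3 libraries, between 21464 and 37798 in sub, between 75341 and 99500 in low and between 66729 and 73520.2 in high. Summed endothelial markers (12 genes) lay between 116151 and 165176 in neg, between 37959 and 45171 in sub, between 760.2 and 2455 in low and between 555.4 and 922.4 in high, where Eng and Erg were at 0 in all 3 libraries. Stellate and mesenchymal markers (10 genes) summed to between 22530.5 and 40162 in neg, 27112 and 37790 in sub, 857.3 and 2679 in low, and 682.0 and 2789 in high. Hepatocyte markers (10 genes) summed to between 395.0 and 728.2 in neg, 4442 and 7437 in sub, 13822 and 21609.8 in low, and 17019 and 20762 in high. Alb and Ahsg made up most of the sums in low and high, where Ttr and Hnf4a were present in every library too. Apoa1 went the other way, at 0, 247.2 and 0 in low and 7.79, 0 and 152.7 in high. Fgb and Cps1 were at 0 in most low and high libraries. In neg, Serpina1a, Hnf4a, Cyp3a11, Fgb and Tat were at 0, while Apoa1 was at 405.6, 616.4 and 210.5 and Alb at 301.2, 0 and 183.5; Cyp3a11 was at 0 in every library and Serpina1a in low and high as well. Kupffer cell and macrophage markers (10 genes) summed to at most 1348 in any library. In such bulk libraries fewer cells of a type and less RNA per cell cannot be told apart.

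Klf5 and Klf6 were higher in sub, low and high than in neg, while Klf4 was lower in low and high and Klf2 in low. Across the 4 populations, a moderated F test (limma, Benjamini-Hochberg adjustment over 16128 genes, threshold 0.05) passed for 4 of the 8 genes, Klf2 (adjusted p = 0.0425), Klf4 (0.00262), Klf5 (5.15e-05) and Klf6 (3.54e-06), against 4.23% of all genes tested. Klf3, Klf9, Klf10 and Klf13 did not pass it. The F test no longer passed for Klf2 when any 1 of neg 1, neg 2, neg 3, sub 1, sub 2, low 1, low 3 or high 2 was left out, nor for Klf4 when any 1 of neg 1, neg 2, neg 3, high 1 or high 2 was left out. Nor did it pass for Klf2 with the replicate number as a block. Klf5 and Klf6 passed the F test whichever library was left out. Without the variance trend only Klf5 passed it. On 10 libraries the test over populations passed for 3 members each with edgeR (Klf4, Klf5 and Klf6) and DESeq2 (Klf2, Klf5 and Klf6). Of all genes, edgeR called 720 and DESeq2 858 in that test.

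**Figure D1:**
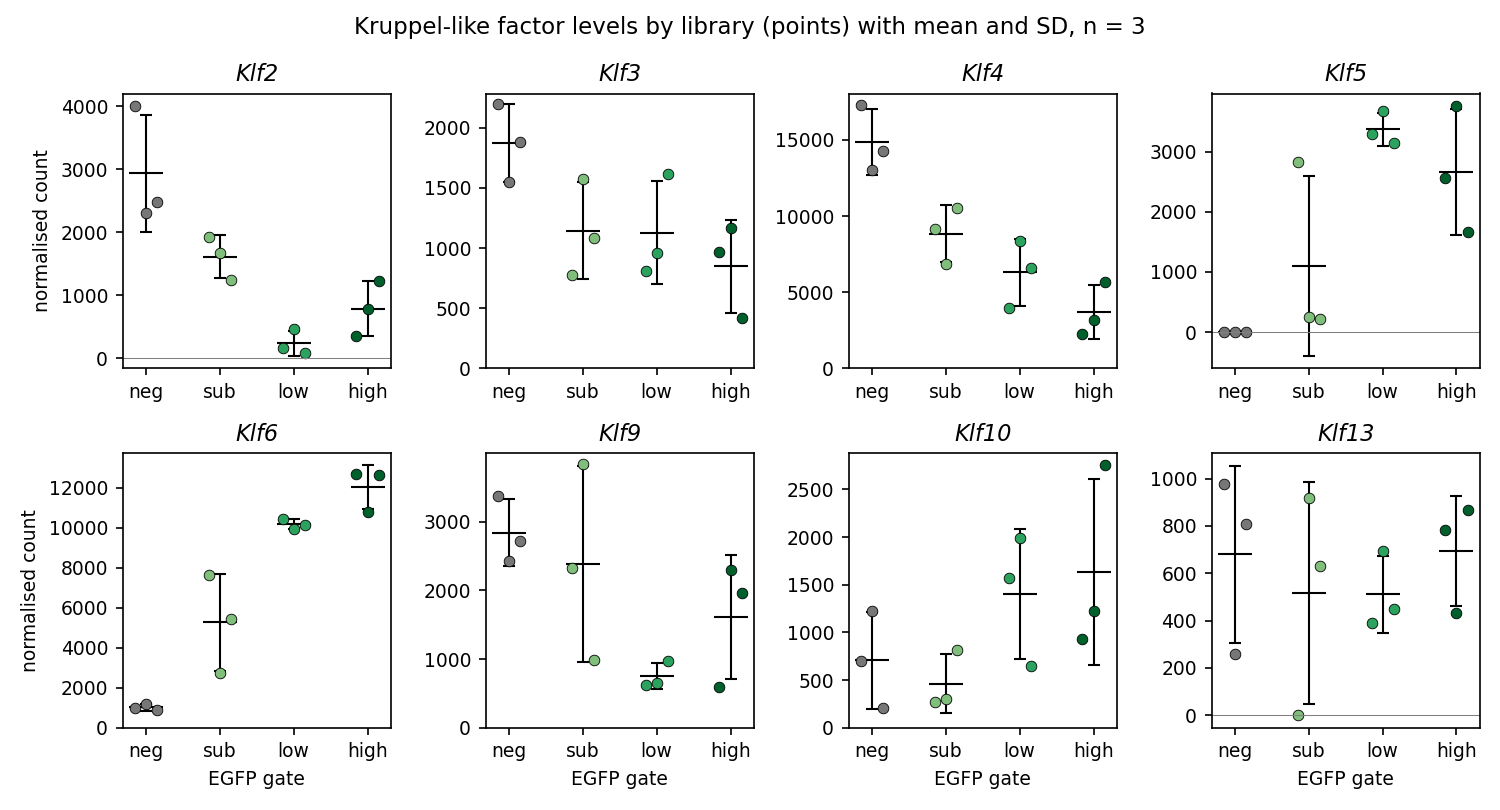
Normalised counts of the 8 Kruppel-like factors (y axis, a linear scale of its own in each panel) by EGFP gate (x axis); points are the 3 libraries, lines the mean and bars 1 SD. Klf6 rises in steps from a mean of 1027 in neg to 12020 in high, Klf4 goes the other way from 14863 to 3677, and Klf5 is at 0 in the 3 neg libraries.

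The promoters of Klf4, Klf2 and Klf6 are shown because the levels of these 3 genes at the 2 ends of the sort differed most in opposite directions among the members present in every library. The sequences are RefSeq's, on GRCm38.p6 (mm10), 5′ to 3′ on the gene's strand and upstream of the annotated start. Klf4 lies on the minus strand of chromosome 4 and is shown for chr4:55532476-55532725. Klf2 lies on the plus strand of chromosome 8 and is shown for chr8:72318812-72319032. Klf6 lies on the plus strand of chromosome 13 and is shown for chr13:5861239-5861481. Capitals mark GGGCGG, the core of the GC box, on either strand, and in Klf2 the match to the MEF2 motif, the site through which MEF2 factors downstream of the kinase Mapk7 act on Klf2 in endothelial cells.
Klf4: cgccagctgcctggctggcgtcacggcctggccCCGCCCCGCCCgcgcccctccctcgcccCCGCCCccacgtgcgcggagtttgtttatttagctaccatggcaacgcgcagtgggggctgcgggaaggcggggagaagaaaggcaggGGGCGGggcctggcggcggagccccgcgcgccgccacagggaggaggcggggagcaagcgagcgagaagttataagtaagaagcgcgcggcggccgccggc
Klf2: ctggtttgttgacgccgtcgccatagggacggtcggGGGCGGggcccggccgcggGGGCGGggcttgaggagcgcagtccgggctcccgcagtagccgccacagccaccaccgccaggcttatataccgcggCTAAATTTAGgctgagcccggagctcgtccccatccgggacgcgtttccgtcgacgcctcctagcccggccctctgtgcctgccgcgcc
Klf6: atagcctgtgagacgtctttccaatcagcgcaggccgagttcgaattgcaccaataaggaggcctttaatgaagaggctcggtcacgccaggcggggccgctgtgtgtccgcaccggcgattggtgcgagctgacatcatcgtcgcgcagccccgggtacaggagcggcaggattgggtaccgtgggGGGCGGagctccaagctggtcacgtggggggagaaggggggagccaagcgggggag
Within the 250 bases before the RefSeq start, GGGCGG was present in 5 of the 6 members that the promoter table held (Klf2, Klf3, Klf4, Klf6 and Klf13) and in 32.7% of 32851 mouse promoters of that length. CACCC was present in Klf2, Klf3, Klf9 and Klf13, against 52.0% of promoters. In Klf3 and Klf13 some of its matches overlap GGGCGG. The match in Klf2 is not in the stretch shown, which ends at 72319032. The counted Klf2 window runs on to 72319061, past the GENCODE M21 start at 72319033. The Klf3 window (64803271 to 64803520) runs past its M21 start at 64803388, so the larger part of it lies inside the annotated gene. That of Klf6 runs to 5861488, past its M21 start at 5861482. The MEF2 motif was found in Klf2 alone of these 6, against 2.92% of promoters. TGACG, the core of the cyclic AMP response element, was present in Klf2, Klf4, Klf9 and Klf13 (17.8% of promoters), ATTGG, the CCAAT box read on the other strand, in Klf6, Klf9 and Klf13 (33.8%), and the E-box CACGTG in Klf4 and Klf6 (6.02%). TATAAA and the CArG box of serum response factor were in none of them, against 12.4% and 1.47%. The 6 windows held between 59.6% (Klf9) and 78.4% (Klf3) G or C, where the median over all promoters is 52.4%. Gene positions given below are those of GENCODE M21 on the same build (GRCm38, mm10), where all 8 members are protein-coding. The letters describe the windows and were not set against any binding data.

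Klf4 (chr4:55527143-55532466, minus strand), a factor of epithelial differentiation and of flow-exposed endothelium that is also one of the reprogramming factors, was the Kruppel-like factor with the highest level in neg. Its normalised counts were 17279.6, 13018 and 14291 in neg, 9126, 6836 and 10540.1 in sub, 3989, 8342 and 6573 in low, and 2241, 3148 and 5643 in high. The 3 neg libraries lay above all others, and the neighbouring populations sub and low, and low and high, overlapped. The mean fell from 14863 ± 2187 (neg) to 6301 ± 2189 (low) and 3677 ± 1761 (high; SD, n = 3 each), which is 2.36-fold and 4.04-fold lower than in neg. The log2 fold change against neg was -1.29 ± 0.33 (SE) in low (limma adjusted p = 0.0269) and -2.11 ± 0.33 in high (0.000442), while in sub it was -0.76 ± 0.33 (0.443). The call in low was lost when any library other than high 3 was left out, with limma adjusted p between 0.0574 and 0.219, and also without a filter on low values, without the variance trend, in a fit of the 2 populations alone, with DESeq2 and with limma on 10 libraries. The call in high stayed whichever library was left out, and was lost without the variance trend (0.289), with the 2 populations alone (0.0704) and with voom (0.134), all limma adjusted p. Between high and sub the libraries did not overlap and the means differed 2.40-fold, with a log2 fold change of -1.35 ± 0.33 and a limma adjusted p of 0.0562, just above the threshold. It passed without high 3 (0.0385), with the replicate number as a block (0.0455), with a pseudocount of 5 (0.0371), with quantile normalisation (0.0356) and with array weights (0.0372), all by limma.

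Klf2 (chr8:72319033-72321656, plus strand), known from quiescent endothelium and resting T cells, had its lowest level in low rather than in high. Its normalised counts were 4006, 2311 and 2486 in neg, 1919, 1677 and 1243 in sub, 171.4, 467.3 and 85.5 in low, and 356.5, 777.2 and 1235 in high. Neg lay above sub and sub above low in every library, and high overlapped low but neither sub nor neg, although its top library (1235) almost met the lowest of sub (1243). Its means from neg to high were 2934 ± 932, 1613 ± 343, 241.4 ± 200.3 and 789.5 ± 439.3 (SD, n = 3 each). Klf2 was thus 12.2-fold lower in low than in neg (22.8-fold without low 2), with a log2 fold change of -3.90 ± 0.87 and a limma adjusted p of 0.012. That call was lost without the variance trend (0.0654), with the 2 populations alone (0.0872) and with voom (0.0868). The difference between high and neg, 3.72-fold, had a log2 fold change of -2.02 ± 0.87 and did not pass (0.242), nor did that between low and sub, 6.68-fold (12.6-fold without low 2; -3.05 ± 0.87, limma adjusted p = 0.132). The step up from low to high, 1.87 on the log2 scale, did not pass either (limma adjusted p = 1). The highest sums of lymphocyte markers (10 genes) from neg to high were 1108, 0, 105.2 and 430.5.

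In high, Klf2 and Klf4 stood at a larger share of their neg means than each of the 12 endothelial markers did of its own, and so did Klf4 in low; in sub, Klf2 stood above 9 and Klf4 above 10 of the 12. In sub, Klf2 stood at 55.0% and Klf4 at 59.4% of their neg means, where the summed endothelial markers stood at 28.8% and the stellate markers at 105.7%. Single endothelial markers reached 56.7% (Pecam1), 69.9% (Erg) and 101% (Lyve1). The share of Lyve1 in sub, and with it its place above Klf2 and Klf4, rested on sub 1. Lyve1 was at 1772 in sub 1 but at 121.4 in sub 2 and 21.9 in sub 3, both below its lowest neg library (379.1). In low, Klf4 stood at 42.4% (libraries from 26.8 to 56.1%) and Klf2 at 8.23% (2.91 to 15.9%), against 4.75% for Pecam1, 1.11% (0.540 to 1.74%) for the endothelial and 5.77% (2.87 to 8.96%) for the stellate sum. The share of Klf2 in low rested on low 2: without it Klf2 stood at 4.38%, below Pecam1 at 5.30% and the stellate sum at 7.23%. In high, Klf2 stood at 26.9% (libraries from 12.1 to 42.1%) and Klf4 at 24.7% (15.1 to 38.0%), against 0.487% (0.394 to 0.655%) for the endothelial and 5.63% (2.28 to 9.32%) for the stellate sum. Of the single endothelial markers in high, Lyve1 stood highest at 5.38% and Pecam1 next at 3.24%, and Eng and Erg were at 0. That order rested on high 1: Lyve1 was at 102.1 there and at 0 in high 2 and high 3. Without high 1, Pecam1 stood at 1.94%. Endothelial markers moved with both genes between neg and the other populations. The part of endothelial cells in both genes' levels, and the difference between these shares, were not tested.

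Genes around Klf2 in endothelial cells were fixed as 2 lists, the MAP kinase, MEF2 and CCM proteins known to act upstream of it and 5 targets that Klf2 or Klf4 are known to regulate there. Of the 12 upstream genes, 0 were higher and 1 was lower by limma in low than in neg, and 0 were higher and 2 were lower in high, where 2.15% and 2.25% of all genes tested were lower. The median log2 fold changes of the 12 were -0.85 and -0.53, against 0 and 0.13 over all genes tested. The list was not split into genes that raise Klf2 and genes that restrain it. Its median, and the level of a single gene such as Heg1, thus do not give the signal to Klf2. Heg1, the endothelial receptor that holds the CCM complex at the membrane, was at 14893, 11663 and 9023 in neg, 6389, 15866 and 6536 in sub, 303.5, 185.2 and 336.2 in low, and 1989, 518.5 and 1401 in high. Its mean, like that of Klf2, was lowest in low, but the step from low to high, 2.08 ± 0.57, did not pass by limma (adjusted p = 0.767), while edgeR (0.000107) and DESeq2 (0.00721) on 10 libraries called it. Its log2 fold change against neg was -5.44 ± 0.57 in low (limma adjusted p = 4.58e-06) and -3.36 ± 0.57 in high (0.00115), and against sub it was -5.03 ± 0.57 in low (0.000215) and -2.95 ± 0.57 in high (0.0167). Mef2c, a MEF2 factor, was lower in high than in neg (-9.34 ± 2.17, limma adjusted p = 0.015) and at 0 in 2 of the 3 high libraries. Of the 5 targets, 3 were lower in low (Nos3, Thbd and S1pr1) and 4 in high (these and Adamts4), against the same shares of all genes, with limma adjusted p between 0.00626 and 0.0296. Nos3, the endothelial nitric oxide synthase, and Thbd, thrombomodulin, were at 0 in all 6 libraries of low and high, where Klf2 and Klf4 were not. The median log2 fold change of the targets was -9.20 in low and -9.28 in high, where that of the 12 endothelial markers was -9.62 and -10.92. The targets summed to 0.726% and 2.45% of their neg mean, against 1.11% and 0.487% for the endothelial markers, whose part in the level of the targets was not tested. Single high libraries lay between 0.241 and 4.15% for the targets. Nearly all of the target sum in high was Adamts5, at 261.3, 15.2 and 186.2. In sub against neg, 0 of these 5 targets and 0 of the 12 upstream genes passed by limma, edgeR or DESeq2, and 0 had an unadjusted limma p under 0.05. Over all 6 contrasts the upstream genes had 5 calls by limma, 7 by edgeR and 5 by DESeq2. The targets had 10, 11 and 17 in the same order. Of all genes, limma called between 0 and 757 in a single contrast, edgeR between 76 and 733, and DESeq2 between 678 and 1875. The contrasts share libraries and a gene counts once in each that calls it, so these totals are not numbers of genes. Heg1 gave most of the limma calls of the upstream list.

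Klf5 (chr14:99298691-99315036, plus strand), known from the proliferating compartment of gut and other epithelia, was at 0 in all 3 neg libraries and present in all 9 others. Its normalised counts were 2829, 255.3 and 220.4 in sub, 3297, 3673 and 3140.4 in low, and 2564, 3761 and 1660.4 in high. Sub 1 lay within the range of high and far above the other sub libraries. Against a floor of 3 reads in a neg library, the mean was at least 300.3-fold higher in sub (at least 64.8-fold without sub 1), at least 918.6-fold higher in low and at least 725.5-fold higher in high. The limma adjusted p against neg was 0.000992 in sub, 2.92e-05 in low and 4.65e-05 in high, and the call in sub was lost with the 2 populations alone (0.631); the fitted log2 fold changes, 9.09, 11.72 and 11.30, depend on the pseudocount. Low lay above sub in every library (3.06-fold in the means, 14.2-fold without sub 1), but the log2 fold change of 2.63 ± 1.43 did not pass (limma adjusted p = 0.552; 3.82 without sub 1, which did not pass either), and low and high overlapped. The summed biliary markers moved with Klf5 across the gates, in sub as well: sub 1 held the highest biliary sum of its population. Their part in the result was not tested.

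Klf6 (chr13:5861482-5870394, plus strand), a factor induced early after injury and studied in activated hepatic stellate cells, had its libraries in the order neg, sub, low, high with no overlap between any 2 populations. Its normalised counts were 981.1, 1206 and 893.4 in neg, 7618, 2750.1 and 5435 in sub, 10447, 9940.0 and 10137 in low, and 12692, 10763 and 12605 in high. The means were 1027 ± 161, 5268 ± 2438, 10175 ± 256 and 12020 ± 1090 (SD, n = 3 each), so that sub was 5.13-fold, low 9.91-fold and high 11.7-fold above neg. All 3 passed, with log2 fold changes of 2.25 ± 0.34, 3.32 ± 0.34 and 3.56 ± 0.34 and limma adjusted p of 0.000744, 3.81e-06 and 1.48e-06. The call in sub was lost without the variance trend (limma adjusted p = 0.46), with the 2 populations alone (0.538), with voom (0.237) and with limma on 10 libraries (0.0536), and those in low and high were lost without the variance trend (0.0713 and 0.0502). The steps between the EGFP-positive populations were smaller and did not pass: 1.07 ± 0.34 from sub to low (limma adjusted p = 0.195), 1.31 ± 0.34 from sub to high (0.0841, passing without sub 1) and 0.24 from low to high (1). The summed biliary markers were higher and the summed endothelial markers lower than in neg in each gate in which Klf6 was higher, with the values given above, and their part in its level was not tested.

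Of 12 immediate early genes, 4 were higher in sub than in neg (Fos, Fosb, Jun and Atf3), 6 in low (these with Egr1 and Ier2) and 8 in high (these with Jund and Btg2) by limma's adjusted p, against 1.04%, 2.55% and 2.44% of all genes tested. DESeq2 on 10 libraries called 2, 5 and 4 of the list, where it called 1645, 1875 and 1845 of all genes in either direction. Ier3 had log2 fold changes of -1.40 in low and -1.19 in high, and Junb and Zfp36 of 0.0089 and -0.058 in low, none of which passed. The list's median log2 fold changes were 1.19 in low and 1.35 in high, against 0 and 0.13 over all genes tested. Atf3, a stress-induced factor, was at 2688, 2404 and 2049 in neg and at 36297, 32550.3 and 34226 in high; the log2 fold change was 3.86 ± 0.20 (limma adjusted p = 3.32e-10). From neg to high, the list summed to 98738 ± 5334, 175973 ± 16980.5, 233473 ± 16650.0 and 261939 ± 10632 (SD, n = 3 each). Klf6 was not a member of that list, and the part of the immediate early response in its level was not tested, nor was that of the biliary and endothelial markers in the level of the list.

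Klf9 and Klf10 are known to respond to hormones and growth factors. Klf9 (chr19:23141226-23168134, plus strand), a target of glucocorticoid and thyroid hormone receptors, was at 3378, 2428 and 2713 in neg, 2326, 3832 and 984.5 in sub, 625.6, 658.5 and 969.8 in low, and 593.6, 2292 and 1958 in high. Every low library lay below every neg and every sub library, 3.78-fold and 3.17-fold in the means, while high lay below neg and overlapped low and sub. The log2 fold change between low and neg was -1.93 ± 0.69 and did not pass (limma adjusted p = 0.136; DESeq2 on 10 libraries, 0.0459). Among 8 glucocorticoid response genes, Errfi1 is a feedback inhibitor of EGF receptor signalling. Its neg libraries lay far apart, at 2574, 41.6 and 161.3. Errfi1 was higher in low (4.81 ± 0.91, limma adjusted p = 0.00377) and in high (5.45 ± 0.91, 0.00104) than in neg. The others, with the receptor Nr3c1 and Fkbp5 and Per1 among them, did not pass by limma. Errfi1 was thus the 1 of 8 higher in each, where 2.55% and 2.44% of all genes were. DESeq2 on 10 libraries called 0 of the list in low and 1 in high, where it called 1875 and 1845 of all genes. The median of the list was -0.63 in low and -0.33 in high, against 0 and 0.13 over all genes tested.

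Klf10 (chr15:38291463-38300706, minus strand), known as a TGF-beta inducible early gene, was at 702.0, 1223 and 206.7 in neg, 270.5, 298.8 and 817.9 in sub, 1567, 1992 and 651.8 in low, and 932.0, 1224 and 2751 in high. High lay above sub in every library, 3.54-fold in the means, and all other pairs of populations overlapped. No contrast passed; the log2 fold change was 1.85 between high and sub (limma adjusted p = 0.521), 1.17 between low and neg (0.589) and 1.38 between high and neg (0.536). Single libraries carried its means: without high 3 the mean of high was 1078 in place of 1636, without sub 3 that of sub was 284.6 in place of 462.4, and without neg 2 that of neg was 454.3 in place of 710.5. Among 8 TGF-beta early response genes, Tgif1, a repressor of Smad-driven transcription, was higher in low (7.29 ± 1.48, limma adjusted p = 0.00619) and in high (7.31 ± 1.48, 0.0058), and Tgfbr2, the type II receptor, was lower in low (-6.90 ± 1.69, 0.0217) than in neg; the other genes of the list did not pass by limma. By limma 2 of 8 thus passed in low and 1 in high, against 4.69% of all genes in each. On 10 libraries edgeR and DESeq2 called 2 in low and 3 in high, where Tgfbr2 and Pmepa1 were lower as well. Of all genes, edgeR called 733 in low and 643 in high, and DESeq2 called 1875 and 1845. The median of the list was 0.33 in low and 0.16 in high, against 0 and 0.13 over all genes tested.

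Klf3 and Klf13 act mainly as repressors, Klf3 through CtBP and Klf13 through Sin3, and neither passed in any contrast. Klf3 (chr5:64803388-64832901, plus strand) was at 2194, 1551 and 1878 in neg, 772.3, 1572 and 1084 in sub, 809.7, 956.7 and 1616 in low, and 964.0, 1165 and 416.5 in high. High lay below neg in every library, 2.21-fold in the means (log2 fold change -1.26, limma adjusted p = 0.424), and the other populations overlapped. Klf13 (chr7:63886351-63938915, minus strand) was at 974.9, 258.0 and 806.5 in neg, 0, 919.4 and 631.4 in sub, 388.9, 695.9 and 448.7 in low, and 780.5, 430.5 and 868.2 in high, with overlap between all pairs. Its single library at 0, sub 1, sets its fitted difference of -2.82 between sub and neg, which was 0.37 without that library. Both genes have neighbours that share their sequence in GENCODE M21: Klf3 overlaps C230096K16Rik on its own strand and Gm20033 on the other, and Klf13 overlaps Gm27252 and E030018B13Rik on the other strand; Klf9 holds Mir1192 on its own strand. Their reads may be divided or shared between such genes. Of 12 cofactors and ubiquitin ligases of the family, Ctbp1, Ctbp2, Sin3a and Sin3b among them, only the acetyltransferase gene Kat2b passed by limma in a contrast with neg, in low (2.90 ± 0.66, limma adjusted p = 0.0134), which is 1 of 12 higher against 2.55% of all genes. DESeq2 on 10 libraries called Kat2b in low and in high (adjusted p = 0.0377), where it called 1875 and 1845 of all genes. The median of the list in low was 0.45, against 0 over all genes tested.

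**Figure D2:**
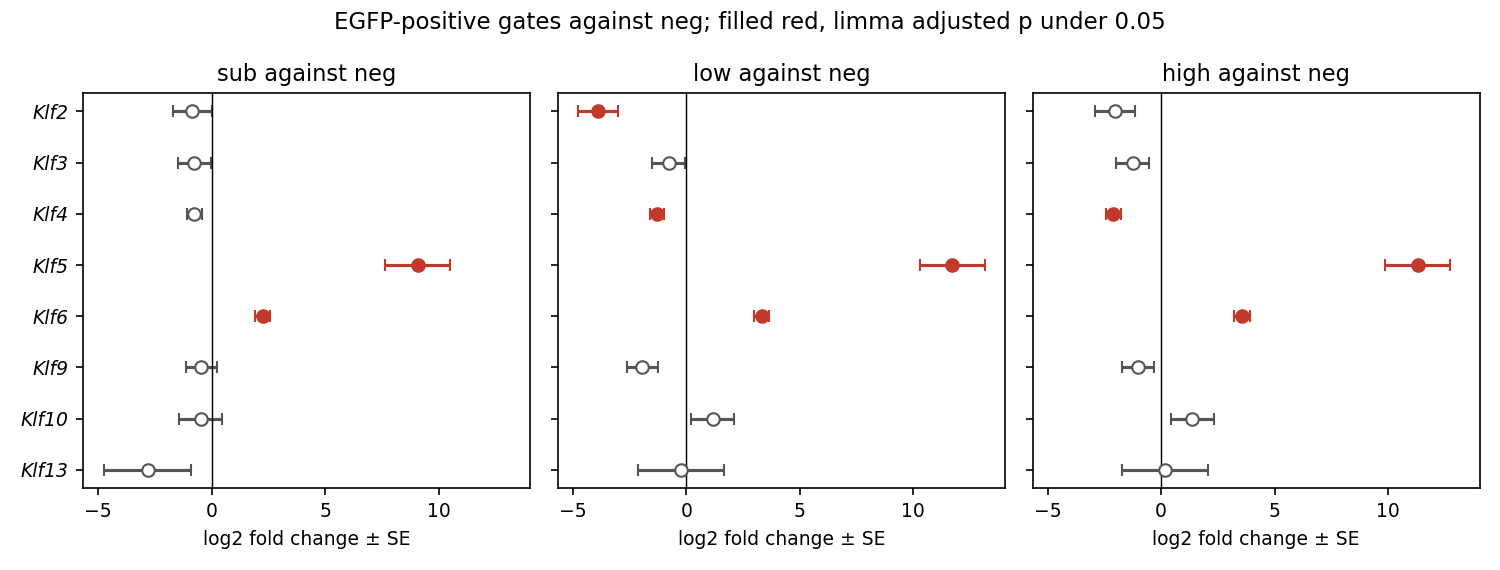
Fitted log2 fold changes of the 8 genes in sub, low and high against neg (x axis) with SE bars; filled red points have a limma adjusted p under 0.05. Klf5 and Klf6 are filled in all 3 panels, Klf4 in low and high, and Klf2 in low; the 3 panels share the neg libraries.

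The calls against neg were counted for each population. In sub against neg, 2 of 8 genes passed, both higher (Klf5 and Klf6), where 1.19% of 16128 genes passed and 1.04% were higher; 4 did not overlap (Klf2 and Klf4 lower as well), where 9.68% of all genes did not. In low against neg, 4 passed, 2 higher and 2 lower, against 4.69% of all genes (2.55% higher, 2.15% lower), and 5 did not overlap, with Klf9 lower as the fifth, against 16.9%. In high against neg, 3 passed, 2 higher and 1 lower (Klf4), against 4.69% (2.44% higher, 2.25% lower), and 6 did not overlap, with Klf2, Klf3 and Klf9 lower as well, against 18.8%. These 3 contrasts share the neg libraries, so they do not count as independent. The median log2 fold change over the 8 genes was -0.62, -0.52 and -0.42 in turn, against 0, 0 and 0.13 over all genes tested.

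Between the EGFP-positive populations no Kruppel-like factor passed by limma in the settings used for the values here, while Klf4 and Klf6 in high against sub passed in the other settings named beside them and Klf6 also with voom (0.0394). In low against sub, 0 of 8 passed by limma, 0 by edgeR and 1 by DESeq2 (Klf2), and 3 had an unadjusted limma p under 0.05 (Klf2, Klf6 and Klf9). Of all genes, 0.744% passed by limma, 275 by edgeR and 1499 by DESeq2, and 1637 had an unadjusted limma p under 0.05. In high against sub, 0 passed by limma, edgeR or DESeq2 and 2 had an unadjusted limma p under 0.05 (Klf4 and Klf6). There 0.986% of all genes passed by limma, 269 by edgeR and 1506 by DESeq2, and 1653 had an unadjusted limma p under 0.05. In high against low, 0 passed by any of the 3 tools and 2 had an unadjusted p under 0.05 (Klf2 and Klf4); limma called 0 of all genes there (0%), with 684 at an unadjusted p under 0.05, edgeR called 76 and DESeq2 678. Libraries that did not overlap were found for 4 members in low against sub (Klf5 and Klf6 higher, Klf2 and Klf9 lower; 11.7% of all genes), 4 in high against sub (Klf6 and Klf10 higher, Klf2 and Klf4 lower; 13.1%) and 1 in high against low (Klf6 higher; 7.34%).

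Levels of different genes can be set side by side per kilobase of exon sequence in GENCODE M21. On that scale Klf4 stood first in neg with a mean of 4875, followed by Klf2 with 1589, Klf9 with 590, Klf6 with 234, Klf10 with 170, Klf3 with 167, Klf13 with 90.3 and Klf5 at 0. In high, Klf6 stood first with 2737, followed by Klf4 with 1206, Klf5 with 512, Klf2 with 427, Klf10 with 391, Klf9 with 335, Klf13 with 92.0 and Klf3 with 75.5. In sub Klf4 still led with 2897 per kilobase, ahead of Klf6 with 1200, and in low Klf6 with 2317 and Klf4 with 2067 lay close together. The mean of Klf6 was thus below that of Klf4 in sub and above it in low, by less than the SD of Klf4 in low. In single libraries, log2(Klf6/Klf4) per kilobase lay between -1.84 and -0.79 in sub, was 0.86, -0.27 and 0.099 in low, and lay between 0.63 and 1.98 in high.

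The summed normalised count of the 17 Klf genes in the table, not per length, lay in 1 range in all gates, with overlapping libraries. Its means from neg to high were 28627 ± 2956, 24498 ± 3425, 26892 ± 3146 and 26643 ± 2524 (SD, n = 3 each). Klf4 has 3049 bases of exon sequence and Klf6 4391, so a sum per kilobase would weigh Klf4 more. Such a sum was not made and need not be even across the gates. On the scale of counts the make-up differed. Klf4 gave 51.8 ± 2.37%, 36.1 ± 6.77%, 23.0 ± 5.60% and 13.5 ± 5.14% of that sum from neg to high. Klf6 gave 3.63 ± 0.818%, 20.9 ± 7.26%, 38.3 ± 5.56% and 45.3 ± 5.15% in the same order. Within a library, where the size factor cancels, log2(Klf6/Klf4) of the normalised counts, not per length, lay between -4.14 and -3.43 in neg, -1.31 and -0.26 in sub, 0.25 and 1.39 in low, and 1.16 and 2.50 in high. Such a ratio shows unequal change and not which of its genes changed.

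**Figure D3:**
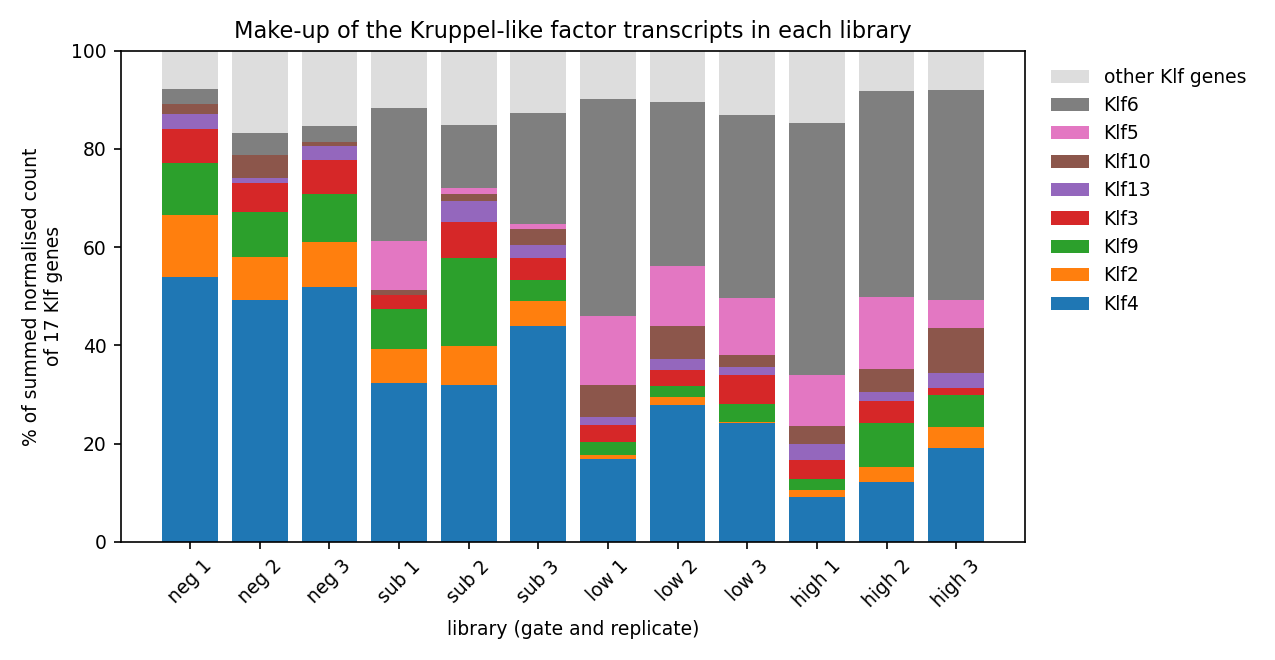
Share of each gene (y axis, % of the summed normalised count of 17 Klf genes, not per length) in each of the 12 libraries (x axis). Klf4 takes 51.8% on average in neg and 13.5% in high, Klf6 3.63% and 45.3%.

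**Figure D4:**
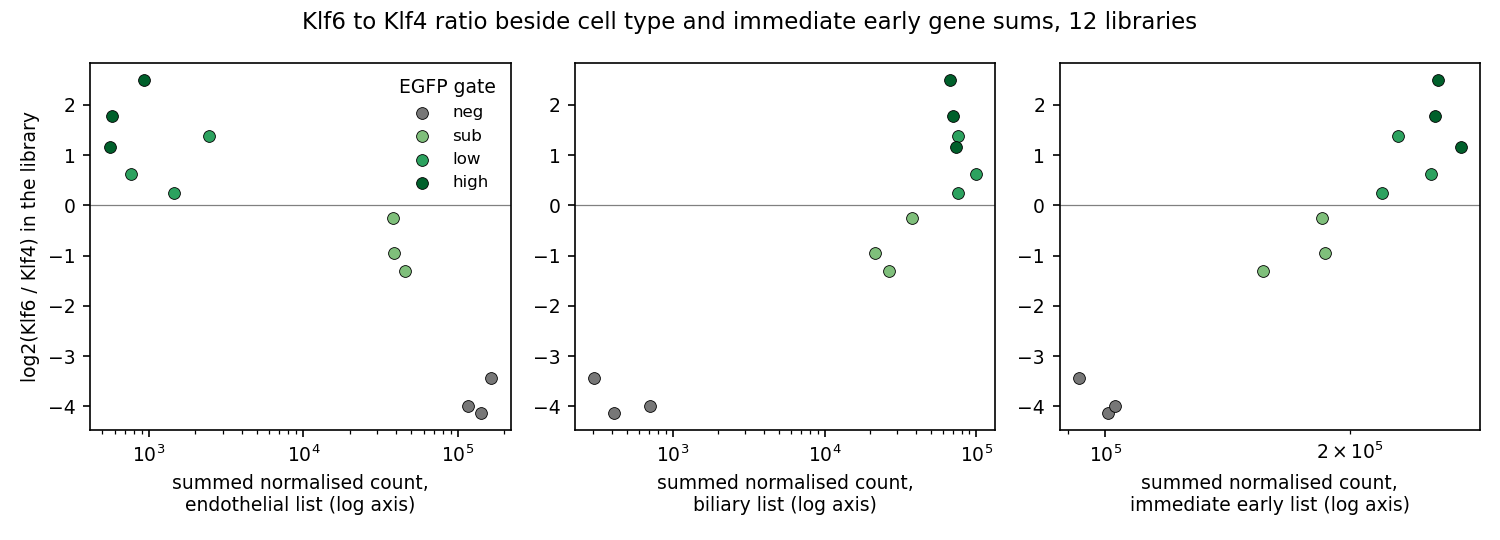
log2(Klf6/Klf4) in each of the 12 libraries (y axis) against the summed normalised count of the endothelial, biliary and immediate early lists (x axes, log scale), coloured by gate. The 3 neg libraries, with ratios from -4.14 to -3.43, stand apart from the rest on each axis, while low and high overlap in ratio.

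Of the 9 other Klf genes, 5 passed the filter on low values (Klf7, Klf11, Klf12, Klf15 and Klf16) and 0 of them passed in any of the 6 contrasts by limma, edgeR or DESeq2, with 2 unadjusted limma p under 0.05 over all contrasts; Klf14 and Klf17 were at 0 in all 12 libraries. Klf7 had the highest normalised count among them, 1662 to 3126 for neg, 1005 to 1915 for sub, 1070.2 to 2823 for low and 1296 to 1929.9 for high, with overlap between all pairs of populations. Of 9 Sp genes, whose products bind the same boxes, Sp1, Sp2, Sp3 and Sp4 passed the filter, 0 passed in any contrast by the 3 tools, again with 2 unadjusted limma p under 0.05, and Sp5, Sp6, Sp7, Sp8 and Sp9 were at 0 throughout.

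The spread between replicates of the strongly expressed members was smaller than that of most genes with a mean of at least 100. The SD of log2(normalised count + 1) within populations was 0.40 for Klf6, 0.47 for Klf4, 0.55 for Klf3, 0.76 for Klf9, 0.81 for Klf2, 0.98 for Klf10, 1.07 for Klf5 and 2.84 for Klf13. The median over genes with a mean of at least 100 was 2.92. Klf13, with its library at 0, was near that median, and 97.3% of those genes had a larger SD than Klf6. Of those genes, 66.7% were at 0 in some but not all libraries of a population, and none were matched to the members for level. The comparison thus cannot tell steady genes from strongly expressed ones.

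As a description over the 12 libraries, which share the 4 population means, the log2 levels of Klf5 and Klf6 correlated at r = 0.97, those of Klf2 and Klf9 at 0.79, and those of Klf2 and Klf4 at 0.63, while Klf4 and Klf6 stood at -0.79. Among 9613 other genes with a mean of at least 100, the 3 with the pattern most like Klf6 were Atf3 (r = 0.987), Rab11fip4 (0.987) and Itgb8 (0.983), and those most like Klf5 were Onecut2 (0.995), Chdh (0.994) and Tm4sf4 (0.992), all 3 of which were at 0 in neg. Most like Klf2 were Vwf (0.941), Zfp652 (0.925) and Mlxip (0.916). Vwf, von Willebrand factor of endothelial cells, had means from neg to high of 7400 ± 2148, 6399 ± 3774, 53.9 ± 90.2 and 104.3 ± 83.8 (SD, n = 3 each). Most like Klf4 were Cfap53 (0.924), Shank3 (0.890) and Itga1 (0.888). Klf9 was most like Casd1 (0.894), Cyp26b1 (0.883) and Ppp1r16b (0.882), Klf3 most like Vrk3 (0.881), Zfp467 (0.875) and 4833438C02Rik (0.869), and Klf10 most like Wapl (0.885), Fam220a (0.860) and Prmt1 (0.858). The genes most like Klf13, Chmp2a (0.963), Malt1 (0.961) and Ssr1 (0.956), were at or near 0 in sub 1, the library in which Klf13 was at 0.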

How the data were processed

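Libraries were made from DNase-treated (30 min) total RNA of 12 sorted cell samples with a random-primed Takara kit for small inputs (SMARTer Stranded Total RNA Pico v2), per the labels. The values deposited by the authors are a signal, normalised counts by gene symbol and library. The submitters' processing notes name Salmon, DESeq2 1.26.0 and mm10, without their roles; use of strand in counting is not given in the sources used here. In every column 100% of values were whole multiples (tolerance 0.001) of the smallest, so each value was read as reads divided by 1 factor per library; the labels mention no molecular identifiers, and the floor of 3 reads covers counting error only.

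Genes with a mean of at least 10 (16128) were tested on log2(normalised count + 1) with limma 3.58.1 in R 4.3.3 (variance trend, population as the only term, all 12 libraries), for 6 contrasts and an F test, two-sided, with Benjamini-Hochberg adjustment over all genes at 0.05. Fold changes on that scale understate changes of low genes. The sample descriptions carry 3 tags, each shared by the same-numbered libraries of the 4 populations. They may mark mice, which the labels do not state; if so, the libraries of a population come from different mice and the populations are paired by mouse. As it stands, p-values measure the spread between these samples, which may be technical. Alternatives were other pseudocounts, filters and scalings, array weights, no trend, 2 populations alone, each library left out, the replicate number as a block, and edgeR 4.0.16, DESeq2 1.42.0 and voom on the recovered reads of 10 libraries (sub 3 and high 2, where 1 read is worth about 1, were left out); limma on those 10 was added after seeing the data. The fit was also run on simulated data, which were not made to hold the scattered zeros of well-expressed genes in these libraries. That run thus does not show how well the fit does on them.

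All 8 members are named, every gene of a list that passed in a described contrast, and the 3 genes with the highest Pearson r to each member. Positions and exon lengths came from GENCODE M21 and promoters from RefSeq, where 6 of 8 members matched (Klf5 and Klf10 did not). Motifs were searched on both strands. Members and lists were chosen with earlier results of these data known.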

Additional observations from a re-analysis of the deposited data

How the results depend on the processing

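Over 48 values (8 genes in 6 contrasts), each under 27 alternatives, 1238 of 1296 kept their direction and side of the threshold, 29 lost and 9 gained a call, and 20 turned sign, all 20 of values that had not passed.

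The number of members that passed in sub against neg (2) was 1 without the variance trend, with voom and with limma on the 10 libraries of the count tests (Klf5 each), and 0 in a fit of the 2 populations alone. In low against neg (4) it was 1 without the trend (Klf5) and 2 with the 2 populations alone (Klf5 and Klf6). In high against neg (3) and in the F test (4) it was 1 without the trend (Klf5), and in the F test 2 with limma on 10 libraries (Klf5 and Klf6) and 3 with edgeR and DESeq2. Klf4 in low against neg lost its call in 16 of 27 alternatives, 11 of them with a library left out. In low against sub (0) it was 1 with DESeq2 (Klf2). In high against sub (0) it was 1 with a pseudocount of 5, quantile normalisation, array weights (Klf4 each) and voom (Klf6). With each library left out in turn it ranged from 0 to 1 in high against sub, 2 to 4 in the F test, 3 to 4 in low against neg, and did not move from 2 in sub against neg, 3 in high against neg, and 0 in the other 2 contrasts. The causes were not tested. Quantile normalisation moved the median log2 fold change of all genes by -0.13 in high against neg and -0.16 in high against sub.

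Same-numbered libraries share a tag in the descriptions, whose meaning (a mouse or otherwise) the labels do not give. The correlations of their deviations were near 0 (18 pairs from -0.016 to 0.027, median 0.011). Those of the 36 other pairs ran from -0.045 to 0.023, with a median of -0.0036. These values cannot exclude pairing, and the numbers were not taken as pairs in the main fit. With the replicate number as a block, high against sub went from 0 to 1 member (Klf4, limma adjusted p = 0.0455). The F test went from 4 to 3 (without Klf2).

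Signs turned for Klf9 in sub against neg with edgeR (0.15 with TMM, 0.12 with the deposited factors), DESeq2 (0.12) and limma on 10 libraries (0.086), and for Klf3 in low against sub with quantile normalisation (0.10) and voom (0.13).

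With single libraries left out, fitted differences whose sign turned ranged as follows: in sub against neg Klf9 from -0.89 to 0.09, Klf10 from -1.19 to 0.09 and Klf13 from -4.55 to 0.37; in low against sub Klf3 from -0.32 to 0.24 and Klf13 from -0.62 to 4.30; in high against low Klf10 from -0.27 to 0.53; in low against neg Klf13 from -0.84 to 0.12; in high against neg Klf13 from -0.42 to 0.54; and in high against sub Klf9 from -1.11 to 0.038 and Klf13 from -0.20 to 4.72.

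Over all genes tested, limma called 192 in sub against neg, where DESeq2 called 1645 and the fit of the 2 populations alone 0; with single libraries left out it called 149 to 317. Klf13 was at 0 in sub 1, which had 15251585 recovered reads, and above 0 in neg 2, the shallowest library with 8775387.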
